A study of Mus musculus with 2 samples.

Results

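The C1q-positive macrophages of injured mouse cornea are 195 cells of 1 droplet single-cell RNA library. They were chosen from 8146 kept barcodes of 9399 in the injured library by their own transcripts. A kept barcode had at least 1000 unique molecular identifiers (UMIs, each standing for 1 captured RNA molecule) and at most 20% of them from mitochondrial genes. A chosen cell had to hold at least 3 UMIs of the complement genes C1qa, C1qb and C1qc together. It also had to reach at least 1000 UMIs per 1000000 UMIs of the cell (CPM) for the sum of these genes, Mrc1 and Pf4. It had to lie under 3000 CPM for the basal keratins Krt5 and Krt14 together and under 5000 CPM for the neutrophil genes S100a8 and S100a9 together. The 195 cells were 2.39% of the kept cells (95% Clopper-Pearson interval 2.07 to 2.75) and 10.8% of the 1812 kept cells under the keratin limit (9.37 to 12.3), here called non-epithelial.

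The study dissociated the cornea and limbus, with most of the conjunctiva cut away, from 1 uninjured wild-type mouse (labelled as control) and 1 wild-type mouse after an alkali (NaOH) injury. Both libraries thus share the wild-type genotype, and neither age, sex nor the time since injury is stated in the labels. The design names 1 mouse per condition. With 1 library per condition no difference between injured and uninjured tissue can be tested, and every interval below is an exact 95% interval that covers counting error only.

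Complement C1q is the recognition molecule of the classical complement pathway, and its A, B and C chains are made largely by macrophages and related cells, whereas most other complement proteins come from the liver. C1q binds antibody complexes and dying cells and helps phagocytes take them up. The cornea holds macrophages and dendritic cells in its stroma and limbus, and injury brings in further monocytes and neutrophils from the limbal vessels. Mrc1 encodes the mannose receptor CD206, and Pf4 encodes a CXC chemokine known from platelets and also made by macrophages.

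The 3 C1q genes lie side by side on the minus strand of chromosome 4 in GRCm38 (GENCODE M21 annotation), C1qb at chr4:136880129-136886187, C1qc at chr4:136889804-136893065 and C1qa at chr4:136895917-136898803. Pf4 lies on the plus strand at chr5:90772435-90773383, next to the related chemokine gene Ppbp at chr5:90768518-90770063. The 250 bases before the RefSeq start of 2 marker genes and of 2 of the genes with the highest ratios below are shown, because these genes are high in the same cells. They are written 5′ to 3′ on the gene's strand, from GRCm38.p6. Capitals mark GAGGAA or its reverse complement TTCCTC, a form of the purine-rich core that the myeloid factor PU.1 is known to bind.
C1qb, chr4:136886201-136886450, minus strand: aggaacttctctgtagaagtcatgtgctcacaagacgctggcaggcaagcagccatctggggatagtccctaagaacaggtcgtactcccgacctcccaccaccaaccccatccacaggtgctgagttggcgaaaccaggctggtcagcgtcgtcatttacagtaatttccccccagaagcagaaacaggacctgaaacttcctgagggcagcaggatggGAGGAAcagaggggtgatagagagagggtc
Pf4, chr5:90772185-90772434, plus strand: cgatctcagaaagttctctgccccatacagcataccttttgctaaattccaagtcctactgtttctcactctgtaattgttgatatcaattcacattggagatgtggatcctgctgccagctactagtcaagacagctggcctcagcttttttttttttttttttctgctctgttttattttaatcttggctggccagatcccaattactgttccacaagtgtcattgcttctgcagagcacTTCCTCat
Ccl12, chr11:82101595-82101844, plus strand: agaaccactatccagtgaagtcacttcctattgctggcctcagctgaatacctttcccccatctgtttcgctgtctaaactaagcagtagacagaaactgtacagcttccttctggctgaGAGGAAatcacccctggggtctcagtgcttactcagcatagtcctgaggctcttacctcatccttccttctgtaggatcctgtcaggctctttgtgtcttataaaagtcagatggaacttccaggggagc
F13a1, chr13:37050245-37050494, minus strand: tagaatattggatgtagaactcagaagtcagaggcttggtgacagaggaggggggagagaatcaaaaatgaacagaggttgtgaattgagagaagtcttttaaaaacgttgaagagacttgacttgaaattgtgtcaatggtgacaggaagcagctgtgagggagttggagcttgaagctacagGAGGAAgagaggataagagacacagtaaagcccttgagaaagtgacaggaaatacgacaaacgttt
Each window shown held 1 match, while another RefSeq window of F13a1, not shown, held none. The word occurred on either strand in 7639 of all 32851 RefSeq windows of this length (23.3%) and in at least 1 window of 6986 of 27025 genes (25.9%). Of the marker genes, C1qb, C1qc, Mrc1 and Pf4 were in the RefSeq table, and 4 of 4 held it. Of the 15 genes with the highest ratio to the other non-epithelial cells, 12 were in the table and 7 held it. A match is a description of letters and was not tested as a site.

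The 195 cells gave 1141855 UMIs in all, with a median of 5358 UMIs (1116 to 28328) and 1933 genes per cell, so that 3 UMIs over all of them correspond to 2.63 CPM. In ratios a count under 3 was set to this floor of 3 UMIs in the class concerned. They were set against the 1617 other non-epithelial cells of the same library (14470758 UMIs). These were split by marker sums into 784 fibroblast-like, 186 vascular endothelial-like, 82 mural-like and 82 Schwann-like cells, 222 neutrophil-like cells (median 1205 UMIs), 67 class II-high cells (median 3805 UMIs) and 194 cells that passed no gate. The class II-high cells carry MHC class II genes at 10000 CPM or more and fall outside the C1q gate. The 2 libraries held 85457541 and 108863350 UMIs, and they shared 15 cell barcodes.

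The genes used for the choice were high by construction. Summed over the cells, C1qa was at 2352 CPM, C1qb at 2830, C1qc at 1321, Mrc1 at 1765 and Pf4 at 11522 CPM. Single cells held 3 to 150 C1q UMIs with a median of 31, and 1006 to 65599 CPM of the 5 genes with a median of 19342. C1qa was found in 189 of the cells, C1qb in 193, C1qc in 184, Mrc1 in 186 and Pf4 in 178. Just inside the limits lay 4 cells with 3 C1q UMIs and 4 cells with 1000 to 2000 CPM of the 5 genes. Just outside lay 11 cells with 1 or 2 C1q UMIs and at least 1000 CPM of the 5 genes, and 4 cells with enough C1q UMIs but under 1000 CPM. A further 33 cells reached 1000 CPM with no C1q UMI. The keratin limit removed 29 cells that met the C1q rule, the neutrophil limit removed 2, and the minimum of 1000 UMIs removed 6.

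**Figure D1:**
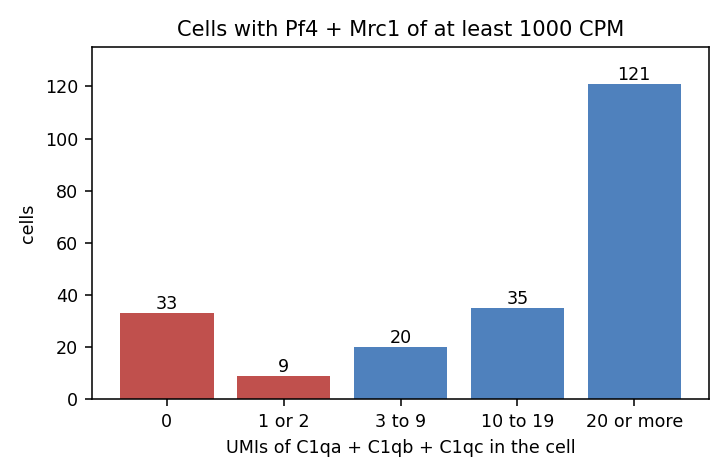
Number of cells (vertical axis) by their UMIs of C1qa, C1qb and C1qc together (horizontal axis), for 218 non-epithelial cells of the injured library. Their Pf4 and Mrc1 sum to at least 1000 CPM, and their S100a8 and S100a9 to under 5000 CPM. Of these, 121 cells held 20 or more C1q UMIs, 9 held 1 or 2, and 33 held none.

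The label was checked on 15 macrophage genes that the choice did not use. All 15 were measured and at least 2-fold higher than in the other non-epithelial cells, with a median log2 ratio of 4.08, or 2.74 by the mean CPM per cell and 2.67 after every cell was thinned to 1000 UMIs. Over all genes of at least 20 CPM in either group, 1228 of 6774 (18.1%) were at least 2-fold higher in the macrophages and 1329 (19.6%) at least 2-fold lower, with a median log2 ratio of 0.07. Lyz2, the lysozyme of myeloid cells, stood at 13469 CPM against 306 CPM and was found in 195 of 195 cells. Csf1r, the receptor for the macrophage growth factor CSF1, was at 529 CPM against 20.3 CPM, and the F4/80 gene Adgre1 was at 327 CPM against 5.18 CPM. The lysosomal glycoprotein gene Cd68 was at 680 CPM against 34.6 CPM. Against the class II-high cells 10 of the 15 genes were at least 2-fold higher (15.9% of all genes tested there) and none was lower. Against the neutrophil-like cells 10 were higher (23.2% of all genes tested there) and 1, Cd14, was lower. Genes and cells are not replicates, so the ratios describe this library and have no test.

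Markers of most other cell types were far below the level in their own class. The 13 neutrophil markers summed to 524 CPM against 56761 CPM in the neutrophil-like cells (0.923%), with Ly6g and Stfa2l1 at 0. The 12 fibroblast markers summed to 1153 CPM, which is 2.05% of the fibroblast-like level and close to the 1217 CPM in epithelial cells of the same library. Vascular endothelial markers summed to 138 CPM against 5591 CPM, mural markers to 163 CPM against 15434 CPM, and Schwann markers to 51.7 CPM against 6107 CPM. These sums were uneven over the cells. In single macrophages the fibroblast markers reached 33344 CPM (median 360 CPM) and the mural markers 22262 CPM (median 0). Of the 195 cells 2 also passed the fibroblast gate, 1 the mural gate and 1 the vascular endothelial gate. The 12 epithelial markers summed to 989 CPM, 3.91% of the epithelial level, and at least 1 of their UMIs was found in 192 of the 195 cells. Dendritic cell markers reached 136 CPM, 13.3% of the class II-high level, with Xcr1, Clec9a, Itgae and Ccr7 at 0. The T and NK cell, B cell and melanocyte lists were not below the level in all other non-epithelial cells. T and NK cell markers summed to 130 CPM against 33.3 CPM there and had a UMI in 71 macrophages, with 9 of 13 at 0. B cell markers summed to 28 CPM against 3.52 CPM in 26 macrophages, with 5 of 7 at 0. Melanocyte markers summed to 46.4 CPM against 10.6 CPM in 45 macrophages, with 5 of 6 at 0, so that 1 gene gave the whole sum. Mast cell markers summed to 3.50 CPM with 6 of 8 at 0. Whether these UMIs came from the macrophages themselves, from free RNA or from second cells in a droplet was not tested.

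By size, the 15 genes with the highest ratio to the other non-epithelial cells were Fcrls, Ccl12, F13a1, Adgre1, C3ar1, Ms4a7, Trem2, Ly86, Aif1, Lyz2, Ms4a6b, Msr1, Fcgr3, Ccl24 and Apoe. Fcrls, an Fc receptor-like gene known from microglia and other macrophages, was at 311 CPM against 2.21 CPM, a ratio of 141 (97.8 to 209). Coagulation factor XIII A chain, F13a1, which crosslinks fibrin, was at 852 CPM against 11.6 CPM, a ratio of 73.4 (62.3 to 87.0). The 4-pass membrane protein gene Ms4a7 was at 722 CPM against 13.6 CPM and its neighbour in the family, Ms4a6b, at 349 CPM against 9.40 CPM. Ly86, the partner MD-1 of the receptor RP105, was at 187 CPM and the actin-binding protein gene Aif1 (IBA1) at 399 CPM. Apoe, the lipid carrier apolipoprotein E, was at 14287 CPM against 411 CPM, a ratio of 34.8 (33.8 to 35.8). The ratios over these 15 genes ran from 34.8 to 141. They ran from 9.90 to 63.6 when every cell was thinned to 1000 UMIs, and from 67.2 to 1039 when the 194 cells that passed no gate were left out of the other cells. In those 194 cells Pf4 stood at 2328 CPM and Lyz2 at 2428 CPM.

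The 8 genes with the lowest ratio were Fmod, Col3a1, Ecrg4, Cpxm1, Col11a1, Steap4, Meg3 and Crabp1, which stood at 1 to 41 UMIs in all macrophages together. Col3a1, a fibrillar collagen, was at 35.9 CPM against 3066 CPM, 85.4-fold lower (62.9 to 119). Fmod, a collagen-binding proteoglycan of connective tissue, was at 4.38 CPM against 386 CPM, 88.2-fold lower (37.8 to 272). In the fibroblast-like cells Col3a1 was at 4211 CPM and Fmod at 556 CPM.

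**Figure D2:**
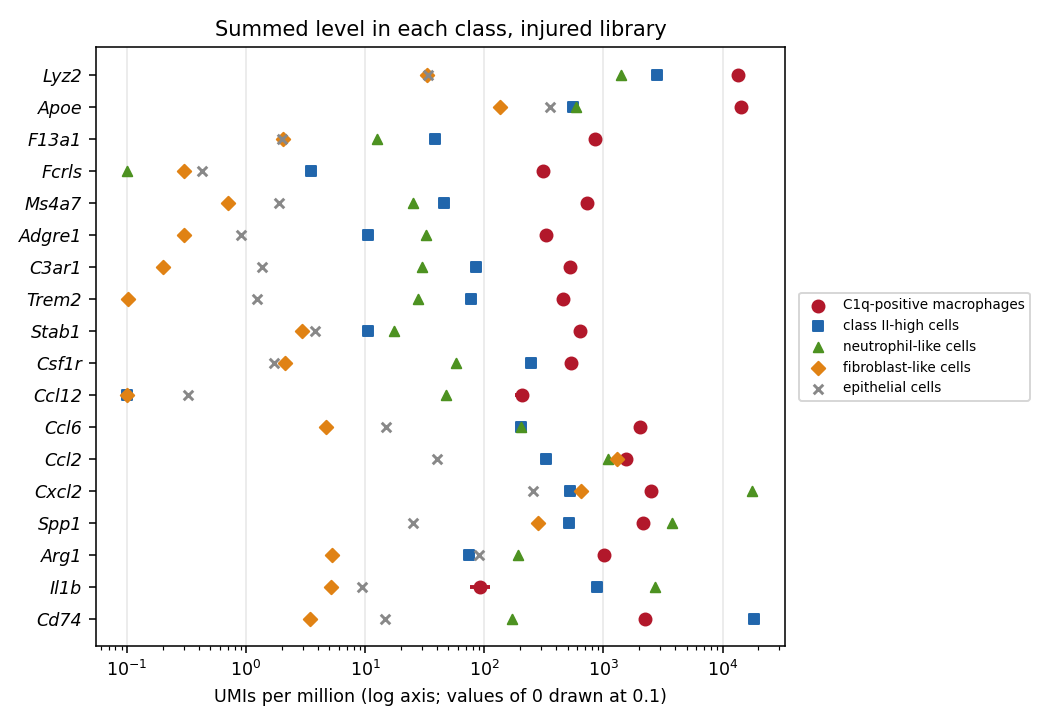
Summed level of 18 genes (vertical axis) in CPM on a log axis (horizontal axis, values of 0 drawn at 0.1) in the macrophages, class II-high, neutrophil-like, fibroblast-like and epithelial cells of the injured library, with exact 95% Poisson intervals for the macrophages. Fcrls, F13a1 and Ms4a7 lie highest in the macrophages, Il1b and Cxcl2 in the neutrophil-like cells and Cd74 in the class II-high cells.

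Complement genes beside C1q fell into 2 sets by cell type. Of 13 measured, 6 were at least 2-fold higher than in the other cells and 5 lower, with a median log2 ratio of 0.09. The higher ones were the receptor for C3a, C3ar1 (523 CPM against 8.78 CPM), the receptor for C5a, C5ar1 (340 CPM against 19.8 CPM), properdin, Cfp (549 CPM against 24.3 CPM), both chains of complement receptor 3, Itgam and Itgb2, and Cd93. The lower ones held the proteases that C1q carries in the C1 complex. C1ra was at 5.25 CPM against 225 CPM in the fibroblast-like cells, and C1s1 at 12.3 CPM against 325 CPM. The C1 inhibitor gene Serping1 was at 35 CPM against 975 CPM there. C4b was also lower, at 5.25 CPM, and C3 itself was at 25.4 CPM against 28 CPM in the other cells. Of the cell classes of this library the fibroblast-like cells had the highest level of C1ra, C1s1 and Serping1.

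All 7 genes of the Fc gamma receptor group were at least 2-fold higher than in the other cells, with a median log2 ratio of 4.08, or 2.86 by the mean CPM per cell and 2.93 after thinning. Fc receptors bind antibody-coated particles. Fcgr3 was at 774 CPM against 22.0 CPM, a ratio of 35.1 (30.9 to 40.0), the high-affinity receptor Fcgr1 at 208 CPM against 7.19 CPM, and the inhibitory receptor Fcgr2b at 745 CPM against 63.9 CPM. Their signalling chains Fcer1g and Tyrobp, which neutrophils and dendritic cells share, were at 2698 CPM and 2309 CPM. Among scavenger and pattern receptors 9 of 11 measured were higher and 1 lower, with a median log2 ratio of 2.55. Stab1, a receptor for modified lipoproteins and phosphatidylserine, was at 638 CPM against 23.1 CPM, and Msr1 at 237 CPM against 6.56 CPM. Cd163, the haemoglobin scavenger receptor, had 57 UMIs in 18 cells. Marco, Vsig4 and Timd4, known from other tissue macrophages, had no UMI, under the floor of 2.63 CPM. For the uptake of apoptotic cells the receptor Mertk was at 37.7 CPM against 8.43 CPM, while its relative Axl was at 13.1 CPM against 83.4 CPM and their ligand Gas6 at 180 CPM against 506 CPM. Of the 11 genes measured in that list 5 were higher and 4 lower.

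Lysosomal genes were broadly higher. Of 21 measured, 15 were at least 2-fold higher than in the other cells and 2 lower, with a median log2 ratio of 1.59. Ctsb, a cysteine protease of the lysosome, was at 4295 CPM against 710 CPM, a ratio of 6.05 (5.85 to 6.26). Ctss, a protease used for antigen processing, was at 1608 CPM against 62.1 CPM, and the asparaginyl protease gene Lgmn at 1719 CPM against 115 CPM. Ctsd was at 2555 CPM against 446 CPM. Ctsl was at 4351 CPM against 3135 CPM, a ratio of 1.39, with 4170 CPM in the fibroblast-like cells, and Ctsk, known from osteoclasts and fibroblasts, was at 18.4 CPM against 361 CPM.

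Genes of lipid handling were mostly higher too. Of 13 measured genes of lipid-associated macrophages 10 were higher and 3 lower, with a median log2 ratio of 2.52, and of 10 cholesterol and lipid genes 8 were higher and none lower. The lower 3 were Fabp4, Cd9 and Cd63. The lipid-sensing receptor Trem2 was at 461 CPM against 10.1 CPM and was found in 156 of the 195 cells. Spp1, which encodes osteopontin, was at 2164 CPM against 398 CPM, Gpnmb at 251 CPM against 43.5 CPM and the lipid droplet coat gene Plin2 at 563 CPM against 48.7 CPM. Apoc2, the neighbour of Apoe on chromosome 7, was at 137 CPM against 4.22 CPM. The cholesterol exporter Abca1 was at 294 CPM against 75.2 CPM. Iron genes showed 7 of 12 higher and 3 lower, with the ferritin light chain Ftl1 at 11884 CPM against 3129 CPM and biliverdin reductase Blvrb at 298 CPM against 56.9 CPM. Haem oxygenase Hmox1 was at 458 CPM against 257 CPM, a ratio of 1.78, and the iron exporter gene Slc40a1 had 1 UMI.

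Chemokine genes split by family. Of 9 measured CC chemokine genes 6 were at least 2-fold higher than in the other cells and none lower, with a median log2 ratio of 3.67. Of 9 measured CXC chemokine genes other than the marker Pf4, 4 were higher and 5 lower, with a median log2 ratio of -1.86. Ccl6 was at 2015 CPM against 58.7 CPM, a ratio of 34.3 (31.7 to 37.2), and its neighbour Ccl9 at 1079 CPM against 52.5 CPM. These genes lie at chr11:83587882-83593087 and chr11:83572919-83578636 on the minus strand. Ccl12, at chr11:82101845-82103400, was at 206 CPM against 2 CPM, a ratio of 103 (69.7 to 157). Its neighbours were also found in fibroblast-like cells. Ccl7 was at 1150 CPM with 487 CPM in the fibroblast-like cells, and Ccl2, the main ligand of the monocyte receptor CCR2, was at 1532 CPM with 1287 CPM in the fibroblast-like cells. Ccl8 had 161 UMIs in 22 cells. Ccl3 and Ccl4 were at 398 CPM and 226 CPM, against 6462 CPM and 8582 CPM in the neutrophil-like cells.

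Among the CXC genes, Cxcl2, a ligand of the neutrophil receptor CXCR2, was at 2513 CPM against 1158 CPM in the other cells. Cxcl3 was at 489 CPM against 74.7 CPM, Cxcl16 at 223 CPM against 30.8 CPM and Ppbp at 654 CPM against 122 CPM, with 639 CPM in epithelial cells. The 5 lower genes were Cxcl1, Cxcl5, Cxcl10, Cxcl12 and Cxcl14. Cxcl10, an interferon-induced chemokine, had 3 UMIs, or 2.63 CPM, against 115 CPM, and Cxcl9 had none. Among chemokine receptors 6 of 8 were higher. Ccr2, which marks recruited monocytes and their progeny, was at 219 CPM against 11.3 CPM and found in 92 cells. Cx3cr1 was at 31.5 CPM against 0.898 CPM and found in 25 cells. Ccr1 was at 340 CPM.

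Genes often used to sort macrophage activation were uneven. Of 10 measured genes of alternative activation all 10 were at least 2-fold higher than in the other cells, with a median log2 ratio of 4.35, and of 7 inflammatory genes 3 were higher and 3 lower, with a median of -0.24. Of 10 alternative activation genes measured against the neutrophil-like cells, 6 were higher (23.2% of all genes tested there) and 1, Chil3, was lower. Mgl2, 1 of the 10, was high mainly in the macrophages with high MHC class II, described below. Arg1, the arginase of alternatively activated macrophages, was at 1012 CPM against 52.4 CPM, a ratio of 19.3 (17.6 to 21.2), and was found in 101 of the 195 cells. Il10 was at 27.1 CPM with 31 UMIs in 19 cells, Ccl24 at 166 CPM in 44 cells and Tgfb1 at 211 CPM against 68.1 CPM. Retnla had 1 UMI and Chil3 was at 20.1 CPM against 181 CPM in the neutrophil-like cells. On the inflammatory side Il1b was at 92.0 CPM in 29 cells, Tnf at 71.8 CPM in 50 cells and Il6 at 3 UMIs. Nos2, the inducible nitric oxide synthase, and Il12a and Il12b had no UMI, under the floor of 2.63 CPM. The cyclooxygenase gene Ptgs2 was at 67.4 CPM against 841 CPM, and the interleukin 1 antagonist Il1rn at 201 CPM against 73.5 CPM.

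Regulators differed by list. Of 18 measured macrophage transcription factors 10 were higher and 2 lower. Spi1, which encodes PU.1, was at 363 CPM against 36.3 CPM, Maf at 331 CPM against 67.0 CPM and Cebpa at 86.7 CPM against 5.74 CPM. Of 19 immediate early genes 2 were higher, Atf3 and Klf6, and 7 lower, with a median log2 ratio of -0.86. These genes can also answer tissue dissociation, whose part was not tested. Of 12 genes for NF-kappaB subunits and feedback none was 2-fold higher and 2 were lower. Of 11 heat shock and stress genes none was higher and 4 were lower. Of 10 interferon-stimulated genes 4 were higher and 2 lower. Of 19 cytokine receptors 10 were higher, Csf1r and Csf2ra among them, and 3 lower.

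Products that act on matrix and vessels were divided as well. Of 16 matrix proteases and inhibitors 6 were higher and 6 lower. Adam8 was at 287 CPM against 17.1 CPM and the macrophage elastase Mmp12 at 52.5 CPM against 16.0 CPM. Stromelysin, Mmp3, was at 587 CPM against 12224 CPM and stood at 17598 CPM in the fibroblast-like cells. Mmp9 was at 171 CPM in 50 cells against 939 CPM in the neutrophil-like cells and 1015 CPM in the cells that passed no gate. Of 15 angiogenic and growth factors 2 were higher, Pdgfa (215 CPM against 84.0 CPM) and Tgfb1, and 7 lower, Igf1 (17.5 CPM against 92.0 CPM) among them. Vegfa was at 93.7 CPM against 105 CPM. Fibronectin, Fn1, was at 1188 CPM against 1072 CPM, and thrombospondin 1, Thbs1, at 737 CPM against 643 CPM. Of 10 eicosanoid genes 4 were higher. The thromboxane synthase Tbxas1 was at 59.6 CPM against 1.59 CPM and the prostaglandin D synthase Hpgds at 80.6 CPM against 2.28 CPM.

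**Figure D3:**
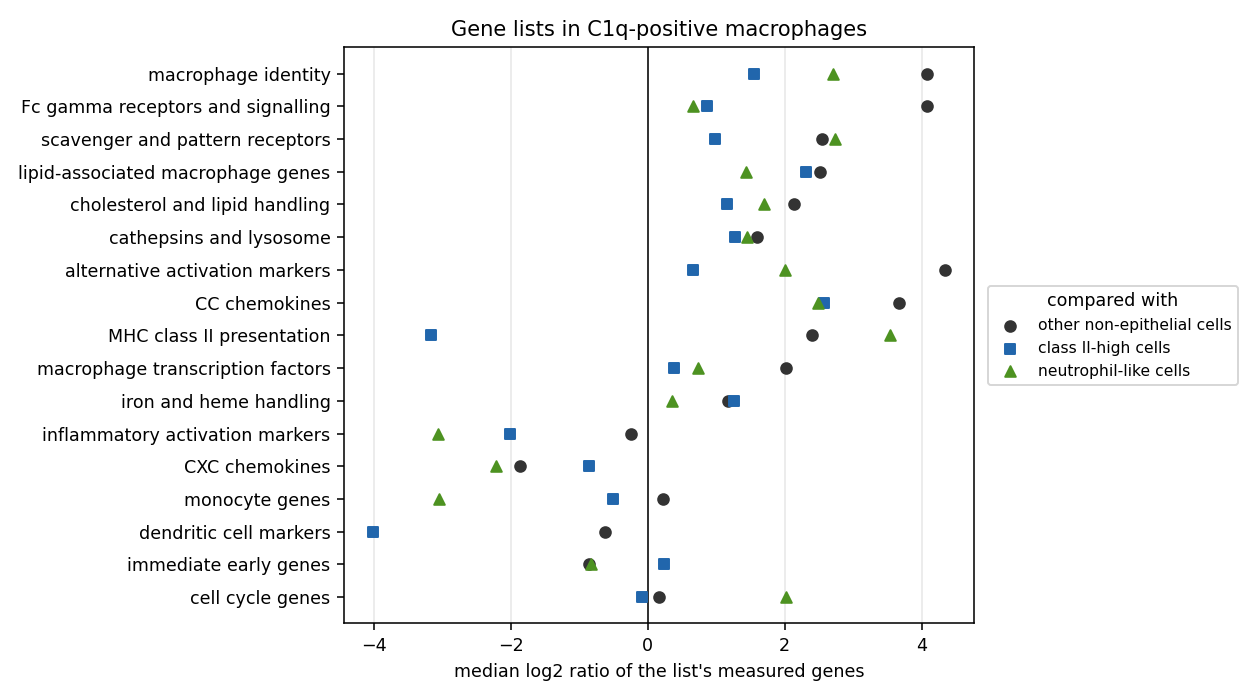
Median log2 ratio (horizontal axis) of the measured genes of 17 lists (vertical axis) in the macrophages against all other non-epithelial cells (circles), class II-high cells (squares) and neutrophil-like cells (triangles) of the injured library. The macrophage identity list lies right of 0 in every comparison, at 4.08, 1.55 and 2.70, and the class II list lies at 2.41, -3.17 and 3.54.

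Against the 67 class II-high cells the macrophages were richer in lysosomal genes and poorer in antigen presentation genes. Of 6183 genes tested 985 (15.9%) were at least 2-fold higher and 719 (11.6%) lower, with a median log2 ratio of 0.13. With every cell thinned to 1000 UMIs the balance turned, to 391 higher and 1851 lower, and the ratios of the 8 highest genes ran from 1.37 to 23.5 in place of 22.0 to 60.2. At full depth the class II-high cells gave 283438 UMIs, so that 3 UMIs there correspond to 10.6 CPM. Of 14 class II presentation genes, whose chief members chose the class II-high cells, 13 were lower, with Cd74 at 2238 CPM against 18360 CPM and H2-Ab1 at 809 CPM against 7942 CPM. Of 9 dendritic cell markers 8 were lower. Ccr7, the receptor that leads dendritic cells to lymph nodes, had no UMI in the macrophages against 265 CPM, at least 101-fold lower at the floor of 3 UMIs. Cd209a, a lectin of monocyte-derived dendritic cells, was at 7.01 CPM against 261 CPM, and the lectin-like receptor gene Klrd1 at 5.25 CPM against 353 CPM. The other genes at the low end were Klrk1, Cxcl12, P2ry10, Col3a1 and Postn. All 10 measured fibroblast markers and all 4 measured mural markers were lower too, with Col3a1 at 1157 CPM in the class II-high cells. With the class II gate at 20000 CPM the log2 ratio of Postn was -2.13 in place of -4.98, and that of Col3a1 -3.35 in place of -5.01. Without the highest doublet scores that of Cxcl12 was -3.85 in place of -5.38. The source of these UMIs was not tested.

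The genes highest against the class II-high cells were Stab1, Adgre1, Fcrls, Apoe, Selenop, Gpnmb, Ccl21a and F13a1. Stab1 was at 638 CPM against 10.6 CPM (3 UMIs), a ratio of 60.2 (20.5 to 293), and Apoe at 14287 CPM against 554 CPM, a ratio of 25.8. Selenop, a plasma selenium carrier, was at 1008 CPM against 42.3 CPM, and Gpnmb at 251 CPM against no UMI, at least 23.7-fold higher at the floor of 3 UMIs. Scavenger and pattern receptors were higher for 5 of 11 and lower for 3, Clec10a, Cd209a and Scarb1. Genes of alternative activation were higher for 5 of 13, Arg1 and Il10 among them, and lower for 5, Mgl2 and Retnla among them. Lysosomal genes were higher for 13 of 21 and lower for none, CC chemokines higher for 9 of 11 and lipid-associated genes higher for 8 of 12. Inflammatory genes were lower for 7 of 9, with Il1b at 92.0 CPM against 889 CPM. Of the Fc receptor group 3 of 7 were higher and none lower, and Ccr2 was at 219 CPM against 286 CPM.

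Against the 222 neutrophil-like cells 1525 of 6574 genes (23.2%) were at least 2-fold higher and 1280 (19.5%) lower, with a median log2 ratio of 0.18. The neutrophil-like class had little depth, at a median of 1205 UMIs against 5358, and 3 UMIs there correspond to 7.53 CPM. With cells under 2000 UMIs left out, 1011 genes were higher, and the ratios of the 8 highest genes ran from 8.55 to 24.9 in place of 23.7 to 67.9. The genes highest against them were F13a1, Fcrls, Stab1, Ccl21a, Ms4a7, Ly86, Apoe and Tmem37. F13a1 was at 852 CPM against 12.5 CPM, a ratio of 67.9, and Fcrls had no UMI there, so that it was at least 41.3-fold higher at the floor of 3 UMIs. The lowest were Ltf, Stfa2l1, Cstdc4, Hdc, Mal, Acod1, Mirt1 and Prss27. Ltf, which encodes lactoferrin, a granule protein, was at 9.63 CPM against 3312 CPM, and Stfa2l1, a stefin, had no UMI against 833 CPM. Acod1, which makes itaconate in activated myeloid cells, was at 7.88 CPM against 974 CPM. Ltf was also at 1302 CPM in the cells that passed no gate and at 207 CPM in epithelial cells. Mal was highest in the cells that passed no gate, at 2132 CPM, and stood at 473 CPM in epithelial cells. By the mean CPM per cell the log2 ratios of Ltf, Mal and Prss27 were -5.34, -4.89 and -3.72, in place of -8.43, -6.97 and -6.80. All 9 measured epithelial markers were at least 2-fold lower in the macrophages than in the neutrophil-like cells.

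Inflammatory output separated these myeloid cells. Of 9 inflammatory genes 7 were lower than in the neutrophil-like cells and 1 higher, and of 9 CXC chemokines 7 were lower. Cxcl2 was 7.06-fold lower, at 2513 CPM against 17742 CPM. Il1b was 29.7-fold lower, at 92.0 CPM against 2728 CPM. Spp1 was at 2164 CPM against 3789 CPM, Cxcl3 at 489 CPM against 1009 CPM and C5ar1 at 340 CPM against 447 CPM. Cell cycle genes were higher for 14 of 17, with a median log2 ratio of 2.03. After every cell was thinned to 1000 UMIs, 15 of the 195 macrophages (7.69%, 4.37 to 12.4) held a UMI of Mki67, Top2a, Cdk1 or Birc5, against 4.48% of the class II-high cells (0.933 to 12.5), 1.80% of the neutrophil-like cells (0.493 to 4.55), 5.36% of the fibroblast-like cells and 21% of the vascular endothelial-like cells. The share was 8.54% of the Schwann-like, 17.1% of the mural-like and 13.9% of the epithelial cells. By at least 2 of 21 cell cycle genes the shares were 15.4% (10.6 to 21.2) of the macrophages and 11.3% (7.42 to 16.2) of the neutrophil-like cells. By either measure the intervals of the macrophages and the neutrophil-like cells overlapped. Against all other non-epithelial cells none of 17 cell cycle genes was 2-fold higher and 1 was lower.

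Within the macrophages, genes differed in how many cells carried them. The shares that follow are of cells with a UMI after thinning to 1000 UMIs, with Clopper-Pearson intervals. Lyz2 was found in 97.4% of the macrophages, against 49.3% of the class II-high, 50.5% of the neutrophil-like and 1.69% of the epithelial cells. Apoe was found in 91.8% (87.0 to 95.2), with 27.1% of the epithelial cells. Spp1 was found in 50.8% (43.5 to 58.0), as in 55.0% of the neutrophil-like cells. Arg1 was found in 32.8% (26.3 to 39.9), against 1.49% of the class II-high, 1.80% of the neutrophil-like and 3.96% of the epithelial cells. Ccl2 was found in 48.2%, close to the 46.0% of the fibroblast-like cells. F13a1 was found in 46.7%, Trem2 in 32.3%, Ccr2 in 22.1% and Folr2, a gene of resident macrophages, in 7.18%. The epithelial share is a background for a gene that those cells do not express, and the median epithelial cell had 11946 UMIs before thinning.

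**Figure D4:**
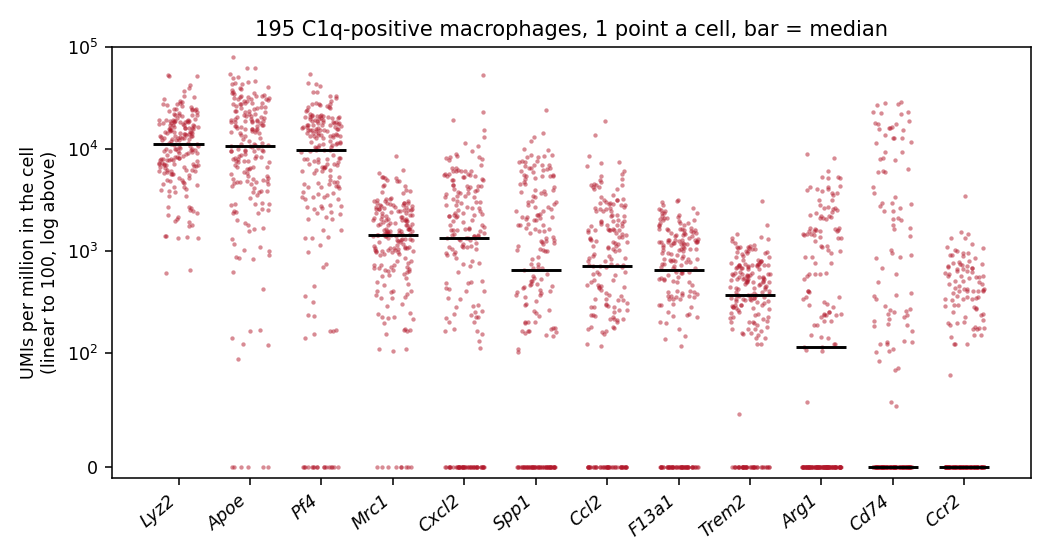
Level of 12 genes (horizontal axis) in each of the 195 macrophages, in CPM (vertical axis, linear to 100 and logarithmic above), 1 point per cell with the median as a bar. Lyz2 ran from 609 to 53104 CPM with a median of 11318 CPM, while Cd74 and Ccr2 had a median of 0.

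In single cells at their full depth Apoe ran from 0 to 79721 CPM with a median of 10753 CPM, and Pf4 from 0 to 55057 CPM with a median of 9910 CPM. Arg1 had a median of 114 CPM and a highest value of 9002 CPM. Cd74 was found in 88 cells and reached 29022 CPM in 1 of them. Gpnmb had a UMI in 52 cells and a highest value of 3342 CPM.

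The 195 cells differed widely in MHC class II. No UMI of H2-Aa, H2-Ab1, H2-Eb1 or Cd74 was found in 94 cells, while 30 cells reached the 10000 CPM that defines the class II-high gate. These 30 cells were C1q-positive by the choice, with C1qb at 2475 CPM against 2880 CPM in the other 165 macrophages and 21.2 CPM in the class II-high cells outside the gate. Cd74 stood at 15376, 388 and 18360 CPM in these 3 sets. Lyz2 stood at 9369, 14047 and 2801 CPM, and Apoe at 2411, 15960 and 554 CPM. Pf4, a gene of the choice, was at 894 CPM in the 30 cells against 13019 CPM in the other macrophages. F13a1 was at 156 CPM against 950 CPM, Stab1 at 70.9 CPM against 717 CPM, and Ctsb at 1333 CPM against 4712 CPM. For Lyz2 and Apoe, which no gate used, the 30 cells lay between the other macrophages and the class II-high cells outside. Higher in the 30 cells were Ccr2 (624 CPM against 162 CPM), Tgfbi (2028 CPM against 737 CPM) and the lectin gene Mgl2 (277 CPM against 5.00 CPM). Csf1r was at 624 CPM against 516 CPM. Ccr7 had no UMI in the 30 cells, and Cd209a was at 56.7 CPM against 261 CPM in the class II-high cells outside. The 30 cells had a median of 4656 UMIs, the 165 a median of 5437. Without the 30 cells the class II list had a median log2 ratio of -0.15 against the other non-epithelial cells in place of 2.41.

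The cells were also split by class II level. The 94 macrophages without a class II UMI and the third of the cells with most class II (65 cells, which include the 30 above) were compared after thinning to 1000 UMIs a cell. Apoe was at 22660 CPM (21707 to 23643) against 5708 CPM (5142 to 6319), and at 15361 CPM in the 36 cells between them. Selenop was at 1426 CPM against 385 CPM, Ccl7 at 1798 CPM against 492 CPM and Gpnmb at 319 CPM against 30.8 CPM. Ccl24, Mmp9 and Folr2 were at 266, 340 and 138 CPM against no UMI, under a floor of 46.2 CPM. Tgfbi, Ccr2 and H2-DMa went the other way, at 564, 160 and 10.6 CPM against 2169, 554 and 415 CPM. Arg1 was at 1043 CPM (846 to 1271) against 969 CPM (745 to 1240), and those intervals overlapped.

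**Figure D5:**
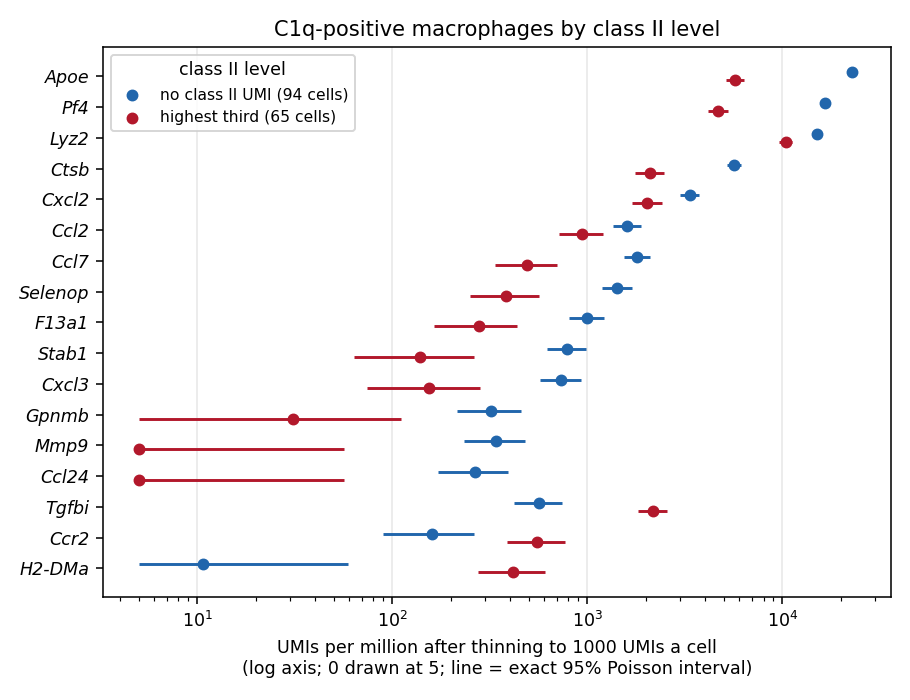
Level of 17 genes (vertical axis) after thinning to 1000 UMIs a cell, in CPM on a log axis (horizontal axis, 0 drawn at 5), in the macrophages split by class II level, with exact 95% Poisson intervals. Apoe is at 22660 CPM in the 94 cells without class II and at 5708 CPM in the 65 cells with most, and Tgfbi is at 564 and 2169 CPM.

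Splits by other gene sets were made the same way. The 65 cells with most Trem2, Gpnmb, Spp1 and Fabp5 were set against the 65 with least. Arg1 was at 1785 CPM (1475 to 2140) against 462 CPM (311 to 659), Ccl6 at 2785 CPM against 692 CPM and Apoe at 21462 CPM against 9046 CPM. Class II ran the other way, with Cd74 at 508 CPM against 6585 CPM, and the third with least held 23 of the 30 class II-high macrophages. The 50 cells with a UMI of Ly6c2, Ccr2, Plac8 or Chil3, genes of monocytes, were set against the 145 without. Tgfbi was at 2060 CPM against 786 CPM, Ccr1 at 800 CPM against 345 CPM, and Arg1 at 540 CPM (356 to 786) against 1138 CPM (971 to 1325). The 50 cells held 14 of the 30 class II-high macrophages, and the 145 held 16, so this split overlaps the one by class II. The 22 cells with a UMI of Lyve1, Folr2, Cd163 or Timd4, genes of resident macrophages, were set against the 173 without. Ccl8 was at 727 CPM against 69.4 CPM, Blvrb at 864 CPM against 202 CPM, F13a1 at 1500 CPM against 757 CPM and Arg1 at 318 CPM (128 to 656) against 1069 CPM (921 to 1235). These cells were higher in Ccl8, Blvrb and F13a1 and lower in Arg1 and in class II, with H2-Ab1 at 273 CPM against 1058 CPM. Among the 22 was 1 cell with lymphatic genes, described below. The splits rest on few UMIs per cell, so a cell without a UMI may still express the gene.

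A single cell stood apart within the gate. It was the deepest of the 195, with 28328 UMIs, and held 5 C1q UMIs and 3106 CPM of the 5 marker genes. It held 274 of 274 UMIs of Ccl21a, 142 of 165 of Lyve1, 68 of 68 of Mmrn1, 35 of 35 of Flt4 and 15 of 16 of Prox1, genes of lymphatic endothelium. Lyve1 was at 145 CPM with this cell and at 20.7 CPM without it, and Ccl21a at 240 CPM with it and at no UMI without it. Ccl21a is among the genes highest against class II-high and neutrophil-like cells through this cell alone, and Lyve1 can be read for the macrophages only without it.

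In the uninjured library 10 cells passed the same gate, 0.148% of 6740 kept cells (0.0712 to 0.273) and 1.29% of 774 non-epithelial cells. They gave 40386 UMIs, so that 3 UMIs correspond to 74.3 CPM, and 4 of them also passed the class II gate and 1 the fibroblast gate. They held 9 to 53 C1q UMIs each. Lyz2 was at 9731 CPM (8793 to 10742), Apoe at 17605 CPM, Csf1r at 495 CPM and Trem2 at 446 CPM. Pf4 was at 3689 CPM and Mrc1 at 644 CPM, both used by the choice. The macrophage genes of the injured cells were thus found in these cells too. Class II and chemokine genes were also present. Cd74 was at 10103 CPM, Cxcl2 at 8716 CPM, Ccl7 at 5868 CPM and Ccl4 at 2872 CPM. Fcrls was at 545 CPM and Ccl12 at 594 CPM. Arg1, Gpnmb, Ccr2, Ppbp and Folr2 had no UMI, under the floor of 74.3 CPM each, and Spp1 had 1 UMI. Ccl6 was at 149 CPM (54.5 to 323) and F13a1 at 149 CPM (54.5 to 323). These values come from 10 cells of 1 mouse and are given as context, since injury cannot be told apart from the mouse or the library.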

How the data were processed

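Single-cell RNA was measured in 2 droplet libraries, 1 per condition. The deposited tables hold raw counts of UMIs for 32285 genes in 9399 injured and 7490 uninjured barcodes, which per the file headers the authors made in Cell Ranger 7.0.1, on build GRCm38 per the submitters' processing notes. Levels were computed here as CPM from summed counts of a class, ratios as quotients of these, with exact 95% Poisson, conditional binomial and Clopper-Pearson intervals in Python 3.11.15 (numpy 2.4.6, scipy 1.17.1, pandas 2.3.3). Tested genes had at least 20 CPM in either group, and a ratio of at least 2 counted as higher or lower. The ratio script was tested on simulated data. Figures were drawn with matplotlib 3.10.9.

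The named genes were, per comparison, those with the highest ratio (15 for all other cells, otherwise 8) and the 8 with the lowest, among genes of at least 100 CPM in the higher group. A higher gene had to reach 25% of its level in the class where it was highest. Genes of the gates, mitochondrial, ribosomal, haemoglobin, sex-linked and predicted genes were left out. In gene lists, members of at least 50 CPM with the highest levels or ratios, and expected members near 0, were named. A class was assigned at 1000 CPM of its marker sum, or 10000 CPM for class II-high and fibroblast-like and 5000 CPM for neutrophil-like cells. Where a symbol had several rows, the one with most UMIs was used. A group with under 3 UMIs of a gene was set to the floor of 3 UMIs in ratios. The members and lists were chosen with earlier results of these data known. Scrublet (scanpy 1.11.5) marked 2 barcodes as doublets, too few to be used, so the 707 highest scores (7.52%, 5 macrophages) were left out only as an alternative. Alternatives changed the depth, mitochondrial, C1q and marker limits, other gates, doublets, the weight of cells, thinning, size factors and the gene filter. The promoter sequences come from RefSeq.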

Additional observations from a re-analysis of the deposited data

How the results depend on the processing

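Over 15 alternatives, 3 of them chosen after seeing the data, the share of macrophages moved by less than its interval in 7 of 7 settings. Counts of genes stayed within 1.5 times in 71 cases and moved in 7. With cells under 2000 UMIs left out, 1011 genes were higher than in neutrophil-like cells in place of 1525. With every cell thinned, 391 genes were higher and 1851 lower than in class II-high cells, in place of 985 and 719. Fewer UMIs raise the floor of small classes, and genes with few UMIs can count as lower through this floor alone. Without the filter on low genes 7848 were higher and 2619 lower than in the other cells. In that setting 5720 were lower than in class II-high and 5925 lower than in neutrophil-like cells. More genes were tested there, and the floor of 3 UMIs differs between classes. It stood at 2.63 CPM in the macrophages, 0.207 CPM in the other cells, 10.6 CPM in class II-high and 7.53 CPM in neutrophil-like cells. Against the other cells, a gene at the floor in both groups counts as higher. Against class II-high and neutrophil-like cells such a gene counts as lower. The 7848, 5720 and 5925 can thus include genes set apart by the floors alone.

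List medians (log2) moved in 8 cases and turned in 1. With the mean CPM per cell in place of summed UMIs, macrophage identity stood at 2.74, Fc receptors at 2.86, class II at 1.64, class I at 0.32 and glycolysis at 0.68 against the other cells. After thinning, macrophage identity stood at 2.67, Fc receptors at 2.93 and class I at 0.38. The class II list stood at -0.15 without the 30 class II-high macrophages, in place of 2.41. The ratio of Ccl21a went from 4.50 to -1.93 against class II-high cells without macrophages that passed another gate, and to -1.97 without the cell with lymphatic genes. Against neutrophil-like cells it went from 4.99 to -1.44 and -1.48. In these settings Ccl21a had no UMI in either group, so the negative values compare floors only and show no lower level. The other named genes kept a ratio past 2-fold in every setting, and thinning moved the ratio by over 1.5 times for 44 of 55.

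Depth limits the class II-high and neutrophil-like cells, where 3 UMIs equal 10.6 and 7.53 CPM. Intervals leave out variation between mice. No paired analysis was possible because each condition has 1 library.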

Other observations

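A set of 33 non-epithelial cells of the injured library resembled the macrophages in Pf4 and Mrc1 (at least 1000 CPM of both together) and held no UMI of C1qa, C1qb or C1qc. Like the macrophages, these cells had to lie under 5000 CPM for S100a8 and S100a9 together. They were chosen after seeing the data and were set against the 176 C1q-positive macrophages that reached the same sum of Pf4 and Mrc1. They had a median of 3952 UMIs against 5436, and gave 143358 UMIs in all, so that 3 UMIs correspond to 20.9 CPM. Lyz2 was found in 32 of the 33 cells, at 13295 CPM against 14045 CPM, and Apoe stood at 16776 CPM against 15313 CPM. In the 176 cells C1qb stood at 2874 CPM. Trem2 was at 488 CPM against 479 CPM, and Ms4a7 at 732 CPM against 745 CPM.

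Cxcl3, a neutrophil chemokine, was at 1765 CPM against 527 CPM, a ratio of 3.35 (2.87 to 3.89), and thrombospondin 1, Thbs1, at 1953 CPM against 750 CPM, a ratio of 2.60 (2.26 to 2.99). Arg1 was at 1751 CPM against 1075 CPM and the galectin gene Lgals3 at 5246 CPM against 3157 CPM. Among the genes lower there was the chemokine gene Ccl4, at 34.9 CPM against 245 CPM, 7.01-fold lower (2.97 to 21.8). Fcrls was at 153 CPM against 337 CPM. Of Ccl12 there were 7 UMIs in 2 cells, 48.8 CPM against 222 CPM. Stmn1, a gene of dividing cells, was at 34.9 CPM against 165 CPM. These ratios come from 1 library and have no test, and 24.5% of the Cxcl3 UMIs came from 1 of the 33 cells.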
